A study of Mus musculus with 4 samples.

Results

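The 9 genes described here belong to the sodium pump, the aquaporins, and the sodium/proton exchanger NHE3 with its scaffold, and were measured in mouse blastocysts. They were chosen by name: Atp1b1, Atp1b2, and Atp1b3 (beta subunits of the Na/K-ATPase), Aqp3, Aqp8, Aqp9, and Aqp11 (aquaporins), Slc9a3 (NHE3), and Slc9a3r1 (the scaffold NHERF1). All 9 were among the 20714 gene symbols listed in both assays, and each was listed once. A blastocyst forms its cavity when the trophectoderm, the outer epithelium, pumps sodium across its basolateral face and water follows by osmosis. The sodium pump is built of a catalytic alpha subunit and a glycosylated beta subunit that carries it to the membrane. Aquaporins are channels for water, and some of them also pass glycerol, whereas sodium/proton exchangers let sodium into the cell in return for protons.

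The data were 2 RNA-seq libraries (Smart-seq2, polyA RNA, hereafter mRNA) and 2 Ribo-seq libraries (ribosome-protected fragments, RPF). All embryos were wild type and untreated, from superovulated females of 4 weeks mated with PWK males. The females are given as C57BL/6J in the protocol and as C57BL/6N in the strain label. All embryos were taken at the 8-cell stage, grown to blastocysts in KSOM medium, and freed of the zona pellucida. Libraries came from whole embryos, so that fewer cells of a type and less RNA per cell cannot be told apart, and no lineage was measured alone. Nothing says that replicates came from separate collections, so p-values measure the spread between these libraries, which may be technical.

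Values are FPKM per gene, on transcripts for mRNA and on coding sequences for RPF, and can therefore be compared between genes within an assay. Short coding sequences compare less well with longer ones in RPF, since the effective length read from these values weighs each of their footprints more. The steps of low FPKM values implied totals of 488605 to 538472 fragments for Ribo-seq and 5205559 to 5500215 for RNA-seq. Per kilobase of length, 1 fragment was worth 2.34 to 2.58 FPKM in Ribo-seq and 0.229 to 0.242 FPKM in RNA-seq. All 7 trophectoderm markers had a mean of at least 1 FPKM in both assays, with Krt18 and Krt8 highest. Of 5 markers of the inner cell mass, 3 reached this mean in mRNA and 5 in RPF, and of 5 primitive endoderm markers, 1 and 4 did. All 6 cumulus or granulosa markers were listed at 0 in every library. Of 6 oocyte markers, 5 were at 0 in both Ribo-seq libraries, and Zp3 had a mean of 1.83 FPKM. Of 4 blood markers, only Hba-a1 was above 0, at a mean mRNA of 1.18 FPKM, with an RPF at 0.

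The bases around the start codon are shown for 8 of the 9 genes, since the ribosome selects its start there and RPF levels are the main readout below. The annotated transcript of Slc9a3 begins at its start codon, so no window could be shown for it. Each window has 10 bases before the start codon, the start codon ATG in capitals, and 7 bases after it, on the strand of the gene in NCBIM37 (the assembly of mm9).
Atp1b1 (chr1:166387979-166387998, minus strand): agcagacaccATGgcccgcg
Atp1b2 (chr11:69418865-69418884, minus strand): tgcctccaagATGgtcatcc
Atp1b3 (chr9:96264564-96264583, minus strand): cacgcccatcATGacgaaga
Aqp3 (chr4:41045133-41045152, minus strand): gcctcgcgccATGggtcgac
Aqp8 (chr7:130605951-130605970, plus strand): tcttgagcagATGtctgggg
Aqp9 (chr9:71010303-71010322, minus strand): gcatctgaaaATGgcctggc
Aqp11 (chr7:104886488-104886507, minus strand): tgagggagccATGtccgcgc
Slc9a3r1 (chr11:115024830-115024849, plus strand): gcagaacaagATGagcgcgg

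The favoured context, ANNATGG or GNNATGG read on the strand of the gene, was present in 4 of these 8 windows (Atp1b1, Atp1b2, Aqp3, and Aqp9) and in 41.4% of 18769 genes. A purine 3 bases before the start codon was present in 7 of the 8, with Aqp8 as the exception, and in 84.2% of all genes. A match is only a description of the sequence.

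The sodium pump was measured first through its beta subunits. Atp1b1 (chromosome 1, 166367398 to 166388486, 6 exons) encodes the beta 1 subunit. Its mRNA level was 41.2 and 49.6 FPKM in replicates 1 and 2, or 45.4 ± 5.91 FPKM (SD, n = 2). Its RPF level was 483 and 515 FPKM, or 499 ± 22.6 FPKM (SD, n = 2). These RPF values rested on 184 and 178 footprints, and were above those of 97.3% and 97.4% of the genes listed in Ribo-seq. The mRNA values were above those of 94.0% and 94.7% of genes. Both RPF libraries were thus far above both mRNA libraries, and the replicates of each assay lay close together. RPF also exceeded mRNA in every library for 72.5% of all genes tested below, so that order alone is common.

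Atp1b3 (chromosome 9, 96233099 to 96264766, 7 exons) encodes the beta 3 subunit. Its mRNA level was 63.9 and 49.5 FPKM in replicates 1 and 2, or 56.7 ± 10.1 FPKM (SD, n = 2). Its RPF level was 54.3 and 58.2 FPKM, or 56.2 ± 2.77 FPKM (SD, n = 2), from 18.4 and 17.9 implied footprints. The mRNA and RPF values of Atp1b3 overlapped, unlike those of Atp1b1. Of the 28-base windows in its coding sequence, 39.6% occurred at 2 places in the genome, whereas every window of Atp1b1 occurred at 1 place or, for 14.4%, matched no unbroken stretch of the genome. The authors kept reads with up to 20 places. In GENCODE vM1 the span of Gm17562 also overlaps that of Atp1b3. Shared exons were not examined, and the authors quantified on an mm9 annotation from UCSC. Whether reads were split between these genes was not tested.

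Between these 2 subunits, the levels differed in RPF but not beyond the spread in mRNA. The FPKM of Atp1b1 was 0.645 and 1.00 times that of Atp1b3 in the mRNA replicates, and 8.90 and 8.85 times that of Atp1b3 in the RPF replicates. Exact 95% Poisson intervals on the footprints, which cover counting error only, gave 416 to 558 and 442 to 597 FPKM for Atp1b1. For Atp1b3 they gave 31.5 to 83.9 and 34.7 to 92.5 FPKM. Atp1b1 held 39.1% and 50.0% of the mRNA FPKM summed over the 4 beta subunits, and 87.0% and 89.8% of the RPF FPKM.

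**Figure D1:**
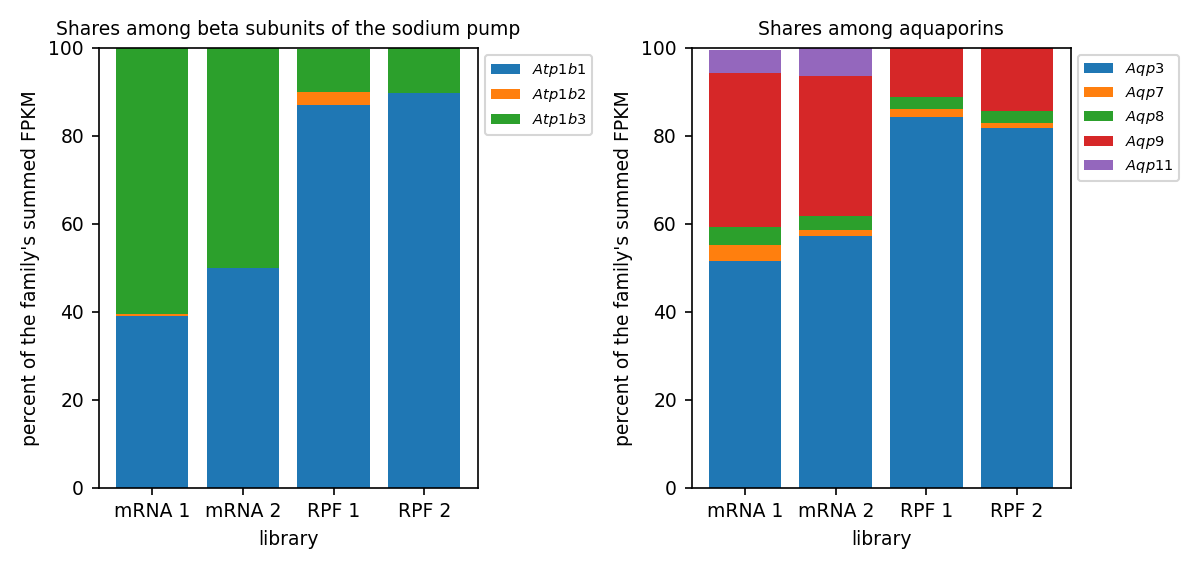
Stacked bars of the percent of summed FPKM that each gene held among the beta subunits (left) and the aquaporins (right) in the 4 libraries, for genes over 1% in any library. Atp1b1 takes 39.1% and 50.0% of the beta-subunit mRNA but 87.0% and 89.8% of the RPF, and Aqp3 takes 51.6% and 57.2% of the aquaporin mRNA but 84.2% and 81.7% of the RPF.

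Atp1b2 (chromosome 11, 69413238 to 69419444, 7 exons) encodes the beta 2 subunit, which is best known from glial cells. Its mRNA was 0.330 FPKM in replicate 1 and listed at 0 in replicate 2. Ribo-seq replicate 1 gave 16.7 FPKM, from 6.00 footprints, and replicate 2 listed the gene at 0, where a floor of 3 footprints was 9.23 FPKM. Exact 95% Poisson intervals were 6.15 to 36.5 FPKM and 0 to 11.3 FPKM, and the difference between the replicates was not tested. Atp1b4, the fourth beta gene, was at 0 in mRNA and at 1.09 and 0.398 FPKM in RPF, under 1 footprint in each library.

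**Figure D2:**
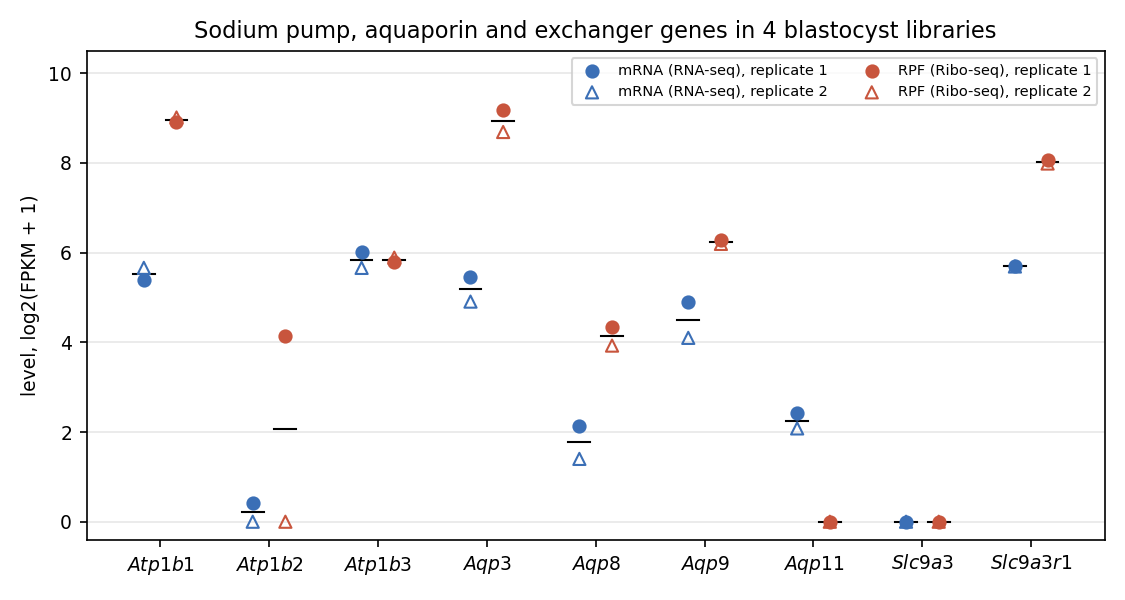
Levels of the 9 genes as log2(FPKM + 1) in each of the 2 mRNA libraries (blue) and 2 RPF libraries (red), with circles for replicate 1, triangles for replicate 2, and a bar at their mean. The RPF points of Atp1b1, Aqp3, Aqp8, Aqp9, and Slc9a3r1 all lie above their mRNA points, those of Atp1b3 overlap, and Aqp11 has mRNA with RPF at 0. RPF exceeded mRNA in every library for 72.5% of all genes tested.

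Among the aquaporins, Aqp3 was the highest in both assays. Aqp3 (chromosome 4, 41039755 to 41045216, 6 exons) encodes a channel for water and glycerol that is basolateral in many epithelia. Its mRNA level was 42.7 and 29.0 FPKM, or 35.9 ± 9.70 FPKM (SD, n = 2), and its RPF level was 581 and 412 FPKM, or 496 ± 120 FPKM (SD, n = 2). The RPF replicates rested on 210 and 135 footprints. Their exact 95% Poisson intervals of 505 to 665 and 345 to 487 FPKM did not overlap, so the replicates of Aqp3 differed by more than counting error. The RPF of Aqp3 was 1.20 and 0.799 times that of Atp1b1, so that these 2 genes were not separated beyond the spread.

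Aqp9 (chromosome 9, 70958466 to 71016489, 6 exons) encodes another channel for water and glycerol. Its mRNA was 29.0 and 16.1 FPKM, and its RPF was 76.4 and 72.2 FPKM (31.2 and 26.7 footprints). The replicates were close in RPF and 1.80-fold apart in mRNA. Aqp3 exceeded Aqp9 1.47- and 1.80-fold in mRNA and 7.60- and 5.70-fold in RPF. For Aqp9, 1.70% of coding windows occurred at more than 20 places in the genome.

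Aqp8 (chromosome 7, 130605808 to 130611517, 6 exons) encodes a water channel that also passes ammonia. Its mRNA was 3.39 and 1.64 FPKM, and its RPF was 19.3 and 14.2 FPKM, from 6.03 and 4.02 footprints. Both RPF values were above both mRNA values but close to the floor of 3 footprints, at 9.62 and 10.6 FPKM. The RPF of Aqp3 was 30.03 and 28.97 times that of Aqp8.

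Aqp11 (chromosome 7, 104874889 to 104886757, 3 exons) encodes an intracellular aquaporin. Its mRNA was 4.34 and 3.23 FPKM, above 77.1% and 74.0% of genes, whereas its RPF was listed at 0 in both replicates. The floor of 3 footprints on its coding sequence was 9.15 and 10.1 FPKM, or 2.42 and 2.66 times its mean mRNA. Before centring, the median gene tested had RPF 2.40 times its mRNA on the log2(FPKM+1) scale (a log2 difference of 1.26). The genes tested had all passed a filter on RPF that Aqp11 failed. Genes with mRNA but little or no RPF are therefore missing from this median. On the log2(FPKM+1) scale the floor was 1.09 and 1.22 above the mRNA of Aqp11, just under the difference of the median gene tested. An RPF at the median difference would thus have lain just above this floor. The exact Poisson intervals of Aqp11, listed at 0 in both libraries, were 0 to 11.3 and 0 to 12.4 FPKM. Both intervals reach above the floor and include an RPF at the median difference. In a single library, RPF up to the top of its interval cannot be told from 0. Whether the ratio of Aqp11 was below that of the median gene was not tested. Of its coding windows, 94.2% occurred at 1 place and none at more.

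Of the 8 other aquaporin genes, 6 (Mip, Aqp1, Aqp2, Aqp4, Aqp6, and Aqp12) were listed at 0 in all 4 libraries. For Aqp7, another glycerol channel, mRNA was 3.01 and 0.666 FPKM, and RPF was 13.2 and 5.81 FPKM, from 5 and 2 footprints. Aqp5 had 0.403 FPKM of mRNA in replicate 1 alone. In mRNA, Aqp3, Aqp7, Aqp8, Aqp9, and Aqp11 were all higher in replicate 1. Inner cell mass markers were also higher there, with a summed mRNA of 146 and 58.0 FPKM in replicates 1 and 2 and 5 of 5 markers higher in replicate 1. Of the 7 trophectoderm markers, 5 were higher in replicate 1, whereas Eomes (15.5 and 32.4 FPKM) and Krt7 (5.76 and 13.1 FPKM) were higher in replicate 2. Of the 5 inner cell mass markers none was at 0 in both mRNA libraries. Their part in the spread of the aquaporins was not tested.

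**Figure D3:**
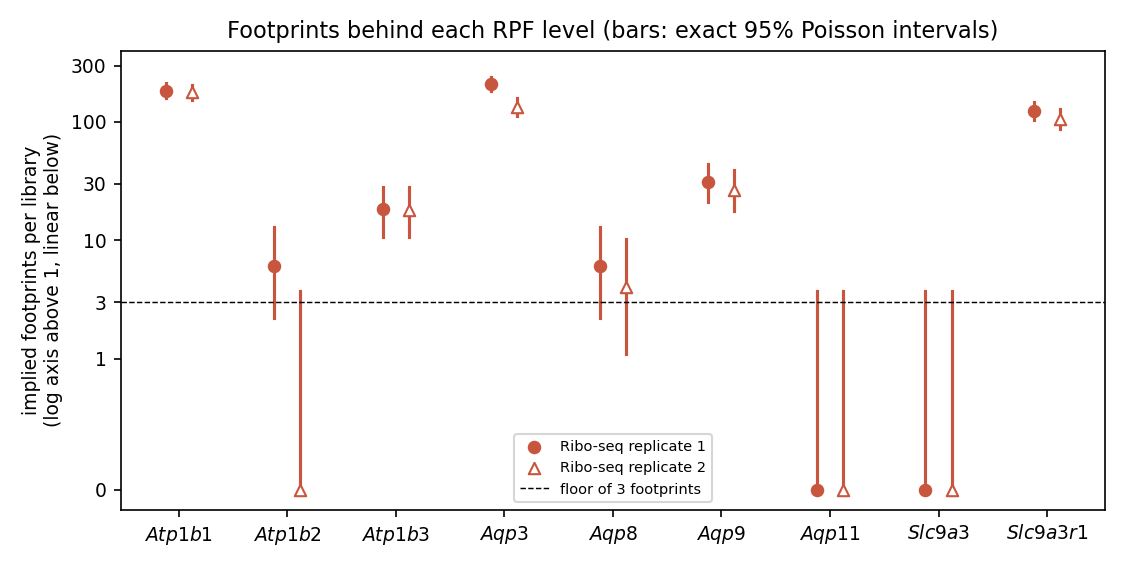
Footprints behind each RPF level in the 2 Ribo-seq libraries, on an axis that is logarithmic above 1 and linear below, with exact 95% Poisson intervals as bars and the floor of 3 footprints as a dashed line. Atp1b1, Aqp3, and Slc9a3r1 rest on 106 to 210 footprints, Atp1b3 and Aqp9 on 17.9 to 31.2, Aqp8 on 6.03 and 4.02, and Aqp11 and Slc9a3 on 0.

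Slc9a3 (chromosome 13, 74258963 to 74303512, 16 exons) encodes NHE3, an apical sodium/proton exchanger of gut and kidney epithelium. It was listed at 0 in all 4 libraries, and the floor of 3 footprints was 2.45 and 2.70 FPKM. Its scaffold gene was abundant. Slc9a3r1 (chromosome 11, 115024655 to 115042495, 6 exons) encodes NHERF1, which holds membrane proteins to the apical cytoskeleton. Its mRNA was 51.0 and 50.6 FPKM, or 50.8 ± 0.281 FPKM (SD, n = 2), and its RPF was 268 and 252 FPKM, or 260 ± 10.97 FPKM (SD, n = 2), from 124 and 106 footprints. All replicates of each assay were nearly level, and the assays did not overlap.

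Of the other exchangers, Slc9a8 had an mRNA of 2.503 and 3.43 FPKM and an RPF of 16.5 and 10.1 FPKM, and Slc9b1 an mRNA of 6.15 and 5.38 FPKM. The RPF of Slc9b1 was 11.01 and 11.03 FPKM. Among the scaffolds and partners, Slc9a3r2 (NHERF2) was seen only as mRNA, at 0.296 FPKM in replicate 1 and 0 elsewhere. For Pdzk1, a related PDZ scaffold, RPF was 106 and 105 FPKM, beside an mRNA level of 33.2 and 29.5 FPKM. For Ezr (ezrin, which links NHERF1 to actin), RPF was 118 and 108 FPKM, beside an mRNA level of 14.9 and 7.70 FPKM. Msn (moesin) had 245 and 270 FPKM of RPF.

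By RPF, the 9 genes stood in the order Atp1b1 and Aqp3, Slc9a3r1, Aqp9, Atp1b3, Aqp8, Atp1b2, then Aqp11 and Slc9a3 at 0. The replicates of Atp1b1 and Aqp3 overlapped, as did those of Aqp8 and Atp1b2. The counting intervals of Aqp9 and Atp1b3 overlapped as well, although their FPKM values did not. By mRNA the order of means was Atp1b3, Slc9a3r1, Atp1b1, Aqp3, Aqp9, Aqp11, Aqp8, Atp1b2, and Slc9a3. There, Atp1b3 overlapped with Slc9a3r1 and, narrowly, with Atp1b1, Atp1b1 with Aqp3, and Aqp11 with Aqp8. Aqp3 and Aqp9 met at 29.0 FPKM without overlap. With 2 libraries an assay, a two-sided exact permutation test of a single value cannot give a p below 0.333.

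**Figure D4:**
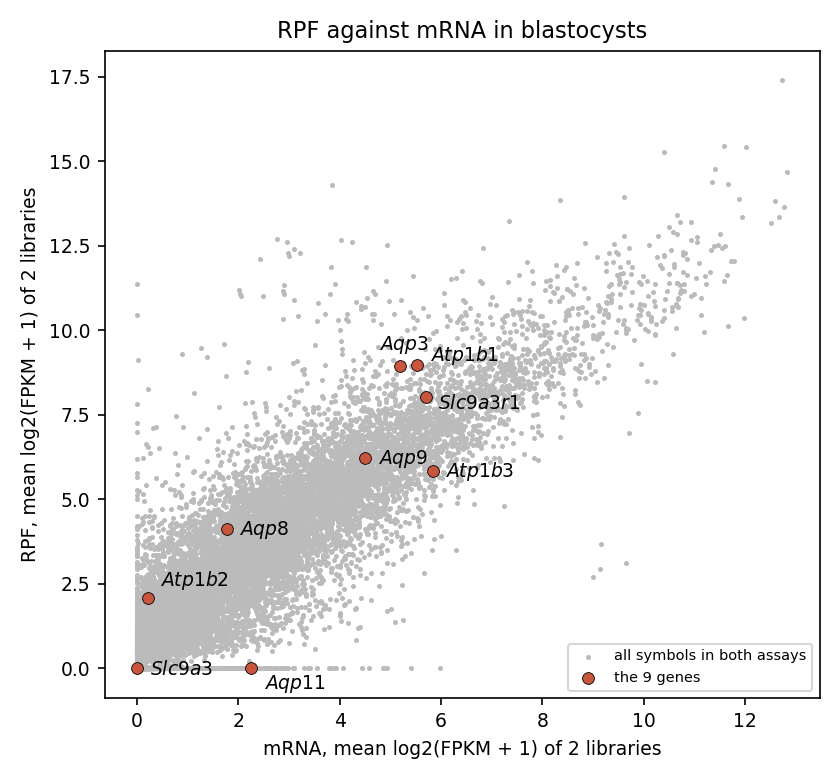
Mean RPF (vertical) against mean mRNA (horizontal), both as log2(FPKM + 1) over 2 libraries, for all 20714 symbols in both assays (grey) and the 9 genes (red). Atp1b1 and Aqp3 lie on the upper side of the cloud at their mRNA level, Atp1b3 lies on the lower side, and Aqp11 lies at an RPF of 0.

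The ratio of RPF to mRNA asked whether ribosome occupancy followed the mRNA. It was tested with limma for the 8327 genes with a mean of at least 1 FPKM in both assays, on log2(FPKM+1) centred on the median of each library. A gene was called at an adjusted p under 0.05 over all genes and a log2 difference of at least 1. Of the genes tested, 10.3% were called higher in RPF (861 genes) and 8.6% lower (716 genes), so that 54.6% of calls were higher (29.9% with no filter on low values), and the median log2 difference was -0.24. Of the 9 genes, 6 passed the filter, and of these 2 were called higher and 1 lower. Atp1b2, Aqp11, and Slc9a3 did not pass, because of low mRNA, low RPF, and both, respectively.

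Atp1b1 and Aqp3 were the 2 called higher. For Atp1b1 the centred log2 difference was 1.93 (SE 0.19, 95% interval 1.45 to 2.42, limma adjusted p = 0.00333), higher than that of 95.1% of the genes tested. For Aqp3 it was 2.26 (SE 0.27, 95% interval 1.57 to 2.94, limma adjusted p = 0.00598), higher than that of 96.5%.

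Atp1b3 was the gene called lower, with a centred log2 difference of -1.50 (SE 0.24, 95% interval -2.11 to -0.89, limma adjusted p = 0.0139). Its interval did not overlap with that of Atp1b1, and 13.2% of the genes tested had a lower value. Without centring the difference was -0.000873 (adjusted p = 0.998), since the call is relative to the median of all genes. Leaving out mRNA replicate 1 gave -1.31 (limma adjusted p = 0.111), and leaving out mRNA replicate 2 gave -1.69 (adjusted p = 0.0549). If the windows at 2 places had yielded no footprints, the RPF would be 1.66-fold higher and the difference -0.78, with the mRNA left unchanged. The mRNA holds the same coding sequence, so its reads may be shared as well. The part of these shared windows in the result was not tested further.

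The other 3 genes tested were not called. The centred log2 difference of Slc9a3r1 was 0.83 (SE 0.18, 95% interval 0.39 to 1.28, limma adjusted p = 0.0293), past the p threshold but under a difference of 1. That of Aqp8 was 0.87 (SE 0.44, 95% interval -0.24 to 1.98, adjusted p = 0.213), and that of Aqp9 was 0.23 (SE 0.34, 95% interval -0.62 to 1.08, adjusted p = 0.644). Both intervals include 0, and that of Aqp8 also reaches the value of Atp1b1. In plain FPKM, RPF exceeded mRNA in every library for 5 of the 6 genes tested, and for 72.5% of all genes tested.

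**Figure D5:**
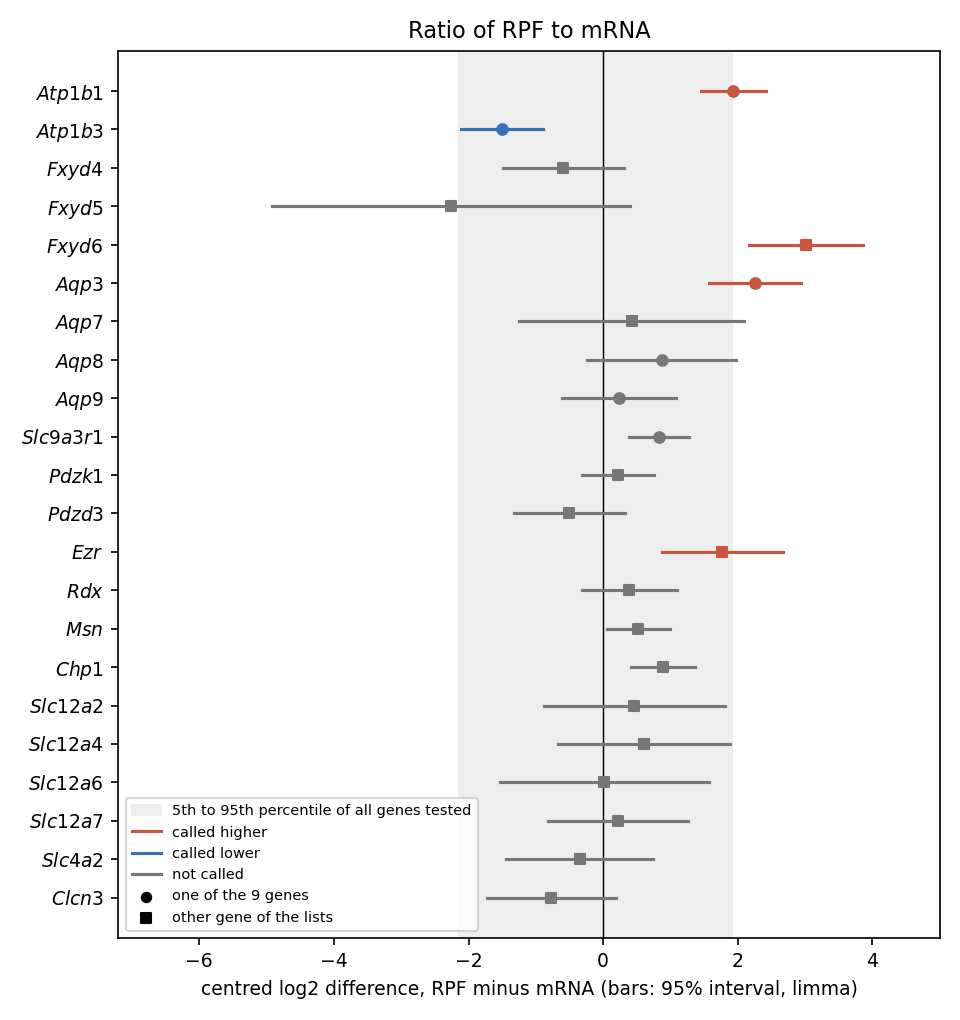
Centred log2 difference of RPF minus mRNA for 22 genes tested, with 95% limma intervals, circles for the 6 of the 9 genes that were tested, squares for others, and the 5th to 95th percentile of all genes (-2.15 to 1.91) in grey. Atp1b1 (1.93), Aqp3 (2.26), Ezr (1.77), and Fxyd6 (3.02) were called higher and Atp1b3 (-1.50) lower.

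Other transport genes are given for 4 of 6 lists, and the lists of the sodium pump, which holds Atp1b3, and of the exchangers are not counted here. The shares over all genes, 10.3% higher and 8.6% lower, are the background to these counts. The median log2 difference of the genes tested was -0.59 for the pump regulators, 0.65 for the aquaporins, 0.52 for the exchanger scaffolds and partners, and 0.12 for other sodium and chloride entry, beside -0.24 for all genes. In the list of FXYD proteins, which are small regulators of the pump, 1 of 3 was called higher. This was Fxyd6, with a log2 difference of 3.02 (SE 0.33, limma adjusted p = 0.00461). Its RPF was 408 and 662 FPKM, from 19.2 and 28.2 footprints, and its mRNA was 25.7 and 18.4 FPKM. On its coding sequence of 282 bases, 1 footprint was worth 21.3 and 23.5 FPKM, beside 2.34 and 2.58 FPKM at a length of a kilobase. The effective length used raises the RPF of coding sequences this short, and its part in the ratio was not tested. Fxyd4 had the highest mRNA of this list, at 118 and 147 FPKM, with an RPF of 181 and 342 FPKM from 7.07 and 12.1 footprints, and was not called (log2 difference -0.59, adjusted p = 0.284). Without RPF replicate 2 it was called lower (log2 difference -1.10, limma adjusted p = 0.00349).

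Of 4 aquaporins tested, 1 was called higher (Aqp3). Of 7 exchanger scaffolds and partners, 1 was called higher. This was Ezr, with a log2 difference of 1.77 (SE 0.36, limma adjusted p = 0.0254). Without mRNA replicate 2 it gave 1.32 (adjusted p = 0.102), and without the mean-variance trend its adjusted p was 0.0606. Of 6 genes for other sodium and chloride entry, 0 were called, and 0 had an unadjusted p under 0.05 in limma. In this list Slc12a7, a potassium-chloride cotransporter, had the highest RPF, at 21.4 and 11.5 FPKM. The channel genes Scnn1b, Scnn1g, and Cftr were listed at 0 in all libraries, and Scnn1a had 4.33 FPKM of RPF in replicate 2 alone.

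The genes most like each of the 6 in level were found by the Euclidean distance of log2(FPKM+1) over the 4 libraries. Atp1b1 was nearest to U2af1 (distance 0.198) and Ube2n (0.209), and Slc9a3r1 to Usp14 (0.197) and Pgam1 (0.221). Atp1b3 was nearest to Arhgap8 (0.220) and Tmem62 (0.236). Aqp9 was nearest to Mfn1 (0.269) and Supt16 (0.337), and Aqp8 to Maged1 (0.328) and Rassf8 (0.336). The nearest genes of Aqp3 were more distant, Ctsl at 0.507 and Sh3bgrl2 at 0.512. The 4 libraries of 2 assays cannot place a gene further than its level.

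The coding sequences of the 9 genes differed in length and base composition. They ran from 786 bases (Aqp8) to 2490 bases (Slc9a3), and 8 of them were at most 1068 bases. The GC content of the coding sequence was lowest in Atp1b3, at 44.3%, and highest in Slc9a3r1, at 61.0%, where the median of 22594 genes was 51.6%. It was 50.6% in Atp1b1 and 57.9% in Aqp3.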

How the data were processed

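The authors deposited FPKM for each of the 4 blastocyst libraries. Per their methods and the submitters' processing notes, reads were trimmed (Trim Galore 0.4.2, cutadapt 1.14), rRNA reads were discarded in Ribo-seq (Bowtie2 2.2.2), and the rest were mapped to the mm9 transcriptome with STAR 2.5.3a (at most 20 places per read) and quantified with Cufflinks 2.2.1. A repeated symbol took its highest FPKM. RPF was set against mRNA with limma (version 3.58.1, R 4.3.3) on log2(FPKM+1), with a mean-variance trend and Benjamini-Hochberg adjustment. The pseudocount understates changes of low genes. Footprints were read from FPKM steps, with the default effective length of Cufflinks (fragments of 200 bases, SD 80) and the longest coding sequence of GENCODE vM1. Of the Ribo-seq values tested, 83.2% and 83.6% lay within 0.1 of a whole fragment (20% by chance), and of the RNA-seq values 65.4% and 62.3%. Where several totals gave a similar share, the lowest was taken. Floors and intervals cover counting error only. The depth estimate was tried only on simulated whole counts over a known total. That trial could not test the effective length used or reads shared between places. The limma fit was tested on simulated data. There, limma with 2 libraries an assay recovered 20% of 100 genes changed by a log2 of 2, and 40% of 100 changed by 3. Of the calls, 6.25% were false. Far fewer genes were changed there than the 861 and 716 called in the data, so these shares need not hold for the data. A gene that was not called may still differ. The remaining values were computed in Python (3.11.15; numpy 2.4.6, pandas 2.3.3, scipy 1.17.1). The 9 genes, all lists, and the tests were chosen with earlier results of these data known. Besides the 9, genes of the lists were named where their mean reached 1 FPKM in either assay, with the 2 nearest genes of each tested gene. Others, at 0 or lower, were named after their values were seen. Protein sequences were not used here, and some list genes are not reported here.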

Additional observations from a re-analysis of the deposited data

How the results depend on the processing

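Under 11 other settings, the log2 difference of RPF and mRNA kept its direction and call for Atp1b1 (1.69 to 2.205), Aqp3 (1.98 to 2.54), and Fxyd6 (2.61 to 3.35). Slc9a3r1 ranged from 0.58 to 1.10 and was called with no filter on low values (1.10). Aqp9 changed sign without mRNA replicate 2 (-0.18) and was 0.65 without replicate 1, and its adjusted p was at least 0.297 in all 11. Aqp8 was called in none of the 10 that kept it. Leaving out 1 of 2 libraries says nothing about the stability of a level, and the RPF of Atp1b2 is 16.7 or 0 FPKM by the library kept. The replicate number as a replicate block gave 769 genes called higher and 618 lower and changed no call of the 9 genes. The labels give no shared origin for the numbers, and the deviations of same-numbered libraries had a correlation of 0.0141 across genes. Of the main calls 54.6% were higher. With no filter, 1353 genes were called higher and 3165 lower (29.9% higher), and without the mean-variance trend 554 and 442. Leaving out each library in turn gave 428 to 1230 genes called higher and 145 to 1634 lower. The calls were 74.7% and 75.1% higher without mRNA replicate 1 or 2, and 42.6% and 42.9% higher without RPF replicate 1 or 2, where a lone library is assumed to vary like those of the other assay. Quantile normalization gave 870 and 926. Without centring, an alternative chosen after seeing the data, 4144 genes were called higher and 66 lower (98.4% higher), 5 of the 6 genes tested were called higher, and the value of Fxyd4 turned to 0.91. The cause was not tested, beyond the shift of 1.502 that centring removes. Depth limits Aqp8, Atp1b2, Aqp11, and Slc9a3, at 0 to 6.03 footprints.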
